A study of Mus musculus with 8 samples.

Results

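The 10 genes described here are Elavl2, Gabrg1, Spock3, Dpp6, Gria1, Shisa9, Olfm3, Pcsk2, Marchf4 and Syt1, a set of neural and neuroendocrine genes examined for histone marks in mouse blood stem cells. They were chosen by measured values, namely the difference in H3K4me1 or H3K4me3 between stem cells without retinoid X receptors (RXRKO) and control cells (WT), out of 21631 protein-coding genes. Elavl2, Gabrg1, Spock3 and Dpp6 were picked for H3K4me3 at their promoters, and the other 6 for H3K4me1 over the gene. Their differences in those marks are therefore a description and carry no test. Peaks were taken from each gene with 20 kb of flank at both ends (the window) and from 1 kb around either gene end (the promoter), on mm10.

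The cells were haematopoietic stem cells (HSCs; Lin-cKit+Sca1+CD48-CD150+) sorted from bone marrow of C57BL/6 mice aged about 10 months. RXRKO cells (RxRa and RxRb both deleted, VaviCre+Rxrabfl/fl) came from mice whose Cre is driven by Vav, which is active across blood cells. WT cells are given as Rxrabfl/fl in the protocol but as VavCre+ in the sample labels, so a difference in Cre cannot be told apart from one in the receptors. Marrow of 4 or 5 mice was pooled and 7500 HSCs went into each CUT&RUN assay, in which an antibody guides a nuclease to marked nucleosomes. H3K4me1 was mapped in 2 RXRKO and 2 WT libraries, and H3K4me3 and H3K27ac in 1 RXRKO and 1 WT library each. Whether the H3K4me1 replicates were separate pools of mice is not given in the sources used here, so the spread between them may be technical. In pooled cells, a mark in more cells and more of the mark per cell cannot be told apart.

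H3K4me3 marks promoters, H3K4me1 marks enhancers and the flanks of promoters, and H3K27ac marks those that are active. Many developmental and neural promoters rich in CpG carry H3K4me3 in blood stem cells without being transcribed, often together with the repressive mark H3K27me3, which was not analysed here. The products of these genes serve nerve and endocrine cells: Elavl2 binds neuronal mRNA, Gabrg1 and Gria1 are subunits of GABA-A and AMPA receptors, Shisa9 is an AMPA receptor partner and Dpp6 is a partner of Kv4 potassium channels. Spock3 is a secreted proteoglycan, Olfm3 a secreted olfactomedin, Pcsk2 a prohormone convertase, Syt1 the calcium sensor of vesicle release and Marchf4 a membrane-bound ubiquitin ligase.

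Of the marker genes for the sorted cells, 12 of 12 HSC promoters had H3K4me3 in both genotypes. Neuron markers had it at 7 of 8 promoters in both genotypes, with no promoter peak at Dcx in any of the 8 libraries, and their H3K4me1 covered 47134 and 67628 bp in RXRKO, against 45877 and 49987 bp in WT. Of 8 mature blood cell markers, 1 had H3K4me3 in both genotypes and 2, Cd79a and Lck, in RXRKO only. Over all genes 65.6% of promoters had H3K4me3 in both genotypes and 1.46% in RXRKO only, and nothing is read from counts this small. Rxra and Rxrb had promoter peaks in all 8 libraries, so these lists do not show the deletion. Depth is unknown, because the peak lists give no read totals. The background pileup recovered from fold and −log10 p stands in for it. It was 6.53 and 12.6 in RXRKO H3K4me1 replicates 1 and 2, against 5.62 and 7.37 in WT. For H3K4me3 it was 6.68 in RXRKO and 4.12 in WT, and for H3K27ac 4.19 in RXRKO and 4.77 in WT. RXRKO was thus deeper by this measure for H3K4me1 and H3K4me3 and shallower for H3K27ac.

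H3K4me3 was called at the promoters of Elavl2, Gabrg1, Spock3, Dpp6 and Olfm3 in RXRKO only, and at those of Gria1, Shisa9, Pcsk2, Marchf4 and Syt1 in both genotypes. Over all genes 1.46% of promoters were called in RXRKO only and 0.398% in WT only. Since this contrast picked the first 4 genes, nothing is read from 5 of 10. The 300-base sequences below run from 250 bases before to 50 bases after an annotated start. They are shown because they are the starts where the genotypes differed, with the second Elavl2 start, marked in both, and the Pcsk2 start, where the H3K4me3 peak differed in length, for comparison. They are RefSeq sequences of GRCm38.p6, the assembly of mm10, written 5′ to 3′ along the gene, and capitals mark CpG dinucleotides. Of the 10 genes, 8 had such a sequence. That of Gria1 and Shisa9 was not used here.
Elavl2 outermost start, chr4:91399935-91400234, minus strand: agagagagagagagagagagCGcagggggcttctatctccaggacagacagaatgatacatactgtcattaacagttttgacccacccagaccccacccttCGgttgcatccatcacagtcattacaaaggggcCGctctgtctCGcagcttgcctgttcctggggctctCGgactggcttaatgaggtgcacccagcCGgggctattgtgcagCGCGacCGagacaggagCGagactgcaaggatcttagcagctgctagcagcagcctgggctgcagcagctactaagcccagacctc
Elavl2 second start, chr4:91376447-91376746, minus strand: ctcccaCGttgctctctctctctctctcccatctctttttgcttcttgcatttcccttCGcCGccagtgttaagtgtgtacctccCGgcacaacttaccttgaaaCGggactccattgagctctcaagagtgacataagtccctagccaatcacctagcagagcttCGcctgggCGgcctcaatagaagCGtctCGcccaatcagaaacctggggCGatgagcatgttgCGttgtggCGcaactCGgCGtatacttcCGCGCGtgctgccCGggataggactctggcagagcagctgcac
Gabrg1, chr5:70842568-70842867, minus strand: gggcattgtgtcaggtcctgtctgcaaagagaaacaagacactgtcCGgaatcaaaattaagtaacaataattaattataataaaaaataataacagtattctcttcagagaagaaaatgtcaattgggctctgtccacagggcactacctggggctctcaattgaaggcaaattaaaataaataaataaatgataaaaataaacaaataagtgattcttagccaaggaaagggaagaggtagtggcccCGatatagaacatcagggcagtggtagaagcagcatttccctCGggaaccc
Spock3, chr8:62950982-62951281, plus strand: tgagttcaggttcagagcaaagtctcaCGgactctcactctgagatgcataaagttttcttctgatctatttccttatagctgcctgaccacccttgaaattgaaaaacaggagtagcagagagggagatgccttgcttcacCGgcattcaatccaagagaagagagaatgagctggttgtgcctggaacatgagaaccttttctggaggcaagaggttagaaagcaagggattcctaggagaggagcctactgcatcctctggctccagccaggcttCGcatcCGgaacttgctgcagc
Dpp6 outermost start, chr5:26817107-26817406, plus strand: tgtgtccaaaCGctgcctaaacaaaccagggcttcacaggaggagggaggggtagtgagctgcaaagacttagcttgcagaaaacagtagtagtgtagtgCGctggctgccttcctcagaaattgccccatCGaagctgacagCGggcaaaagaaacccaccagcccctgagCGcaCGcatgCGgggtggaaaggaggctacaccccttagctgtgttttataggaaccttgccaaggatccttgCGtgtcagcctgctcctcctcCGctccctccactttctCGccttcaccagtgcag
Olfm3 outermost start, chr3:114903828-114904127, plus strand: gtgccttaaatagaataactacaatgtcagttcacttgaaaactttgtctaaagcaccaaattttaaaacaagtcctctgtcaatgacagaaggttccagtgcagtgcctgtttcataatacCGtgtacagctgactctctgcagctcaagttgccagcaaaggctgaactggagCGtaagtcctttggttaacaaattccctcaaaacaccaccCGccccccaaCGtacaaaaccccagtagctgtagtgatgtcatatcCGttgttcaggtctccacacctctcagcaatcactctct
Pcsk2, chr2:143545883-143546182, plus strand: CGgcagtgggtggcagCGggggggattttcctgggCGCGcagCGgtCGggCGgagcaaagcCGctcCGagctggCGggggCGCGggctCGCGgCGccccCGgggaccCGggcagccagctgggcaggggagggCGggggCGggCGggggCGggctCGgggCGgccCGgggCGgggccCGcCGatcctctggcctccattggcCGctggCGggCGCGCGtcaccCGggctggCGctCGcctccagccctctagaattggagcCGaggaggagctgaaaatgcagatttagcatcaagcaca

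Elavl2 has starts far apart in the annotation, and the genotypes differed at the outermost of them. There the RXRKO H3K4me3 peak ran from chr4:91399497-91400245, across the annotated start at 91399984, with the authors' fold over background at 11.2 and a recovered summit pileup of 118. No WT H3K4me3 peak lay within 1 kb. The second start and the third, 23488 and 27915 bp inside the gene, carried H3K4me3 in both genotypes. At the second start the authors' fold was 5.55 in RXRKO and 6.24 in WT, with summit pileups of 472 in RXRKO and 261 in WT. Scaled to the WT background pileup, the RXRKO value there was 291.1. The outermost start thus had the higher fold but the lower pileup in RXRKO. H3K27ac was also called in both genotypes at the second start, with folds of 3.66 in RXRKO and 4.68 in WT. At the third start the H3K4me3 fold was 3.29 in RXRKO and 2.4 in WT, with summit pileups of 304 in RXRKO and 100 in WT. Scaled to the WT background pileup, the RXRKO value was 187.5. Elavl2 was thus marked by H3K4me3 in both genotypes, and of its starts the outermost alone was called in RXRKO only. H3K4me1 at that start was called in both RXRKO libraries, with folds of 4.65 and 8.41, and in WT replicate 1 with a fold of 7.55, but not in WT replicate 2.

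Dpp6, the Kv4 channel partner, showed the same arrangement over a longer distance. Its outermost start carried an RXRKO H3K4me3 peak at chr5:26817047-26818048 with a fold of 9.18 and a summit pileup of 71, and no WT peak. Its second start, 231842 bp inside, carried H3K4me3 in both genotypes, with folds of 9.01 in RXRKO and 10.1 in WT. The summit pileups there were 181 in RXRKO, or 111.6 scaled to the WT background pileup, and 111 in WT. The third start had H3K4me1 in all 4 libraries and no H3K4me3. A region in between, at chr5:26903836-26905567, also had H3K4me3 in both genotypes, with folds of 9.41 in RXRKO and 8.66 in WT, and its H3K27ac was called in RXRKO only, with a fold of 4.82. A further start was annotated for 73 of the 315 genes with an RXRKO-only promoter (23.2%), and in 47 of those 73 (64.4%) a further start was marked in both genotypes. Elavl2 and Dpp6 are therefore not alone in having a further start marked in both genotypes. The 315 were called at either gene end, so their RXRKO-only peak need not lie at the outermost start. Over all genes 65.6% of promoters had H3K4me3 in both genotypes.

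Gabrg1, the gamma-1 subunit of the GABA-A receptor, and Spock3, the testican proteoglycan, have starts at 1 place only. The Gabrg1 H3K4me3 peak at chr5:70842186-70843521 had a fold of 9.62 and a pileup of 83 in RXRKO. The Spock3 peak at chr8:62951116-62952595 had a fold of 9.78 and a pileup of 80 in RXRKO. Neither gene had any H3K4me3 peak in WT over its whole window, nor any H3K27ac peak in either genotype. Olfm3, the olfactomedin, had a weaker RXRKO peak at chr3:114904218-114905025, which began downstream of the start, with a fold of 5.34 and a pileup of 40, and none in WT. Its second start, 176887 bp inside, had no peak of any mark. By −log10 q the 5 promoters ranked 20 (Elavl2), 25 (Gabrg1), 27 (Spock3), 33 (Dpp6) and 75 (Olfm3) among the 315 genes with RXRKO-only H3K4me3.

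With 1 library per genotype the H3K4me3 calls have no replicate check. The RXRKO library had the higher background pileup, 6.68 against 4.12 in WT, and its part in these calls was not tested. Under 6 other settings for the promoter and the peaks, all of the same 2 libraries, the 5 promoters were called in RXRKO only.

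**Figure D1:**
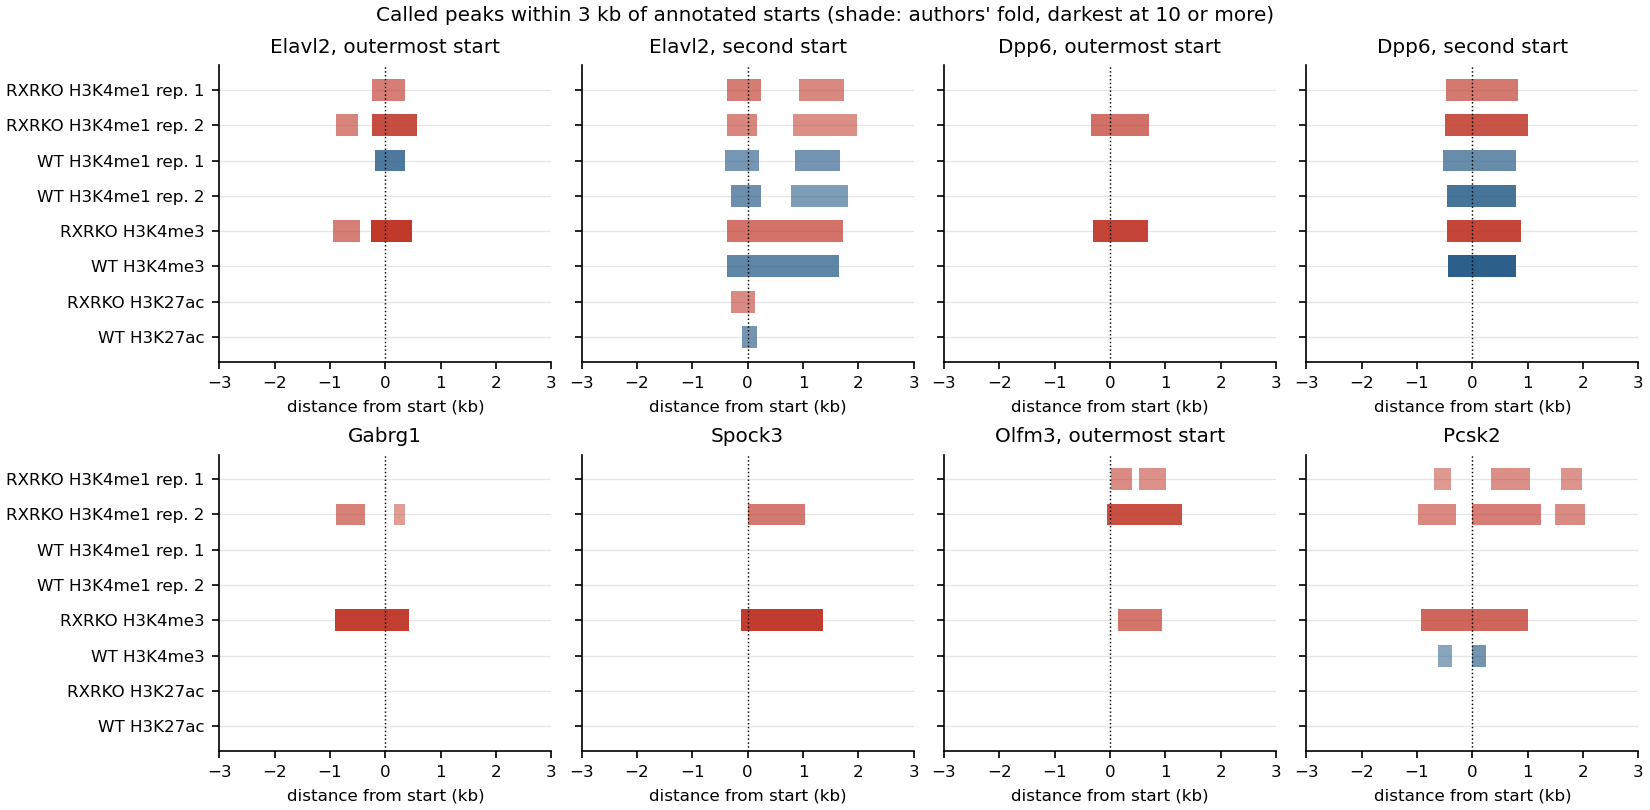
Called peaks of the 8 libraries (rows, RXRKO in red above WT in blue for each mark) within 3 kb of 8 annotated starts, by distance from the start in kb along the gene; the shade follows the authors' fold. H3K4me3 is called in RXRKO only at the outermost starts of Elavl2, Dpp6 and Olfm3 and at Gabrg1 and Spock3, and in both genotypes at the second starts of Elavl2 and Dpp6 and at Pcsk2.

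H3K4me1 at these starts was carried largely by 1 library. At Gabrg1, Spock3 and the outermost Dpp6 start it was called in RXRKO replicate 2 alone, with folds of 4.34, 5.07 and 5.73. RXRKO replicate 2 also has the highest background pileup of the 4 and the longest total covered length, 133.3 Mb against 109.8 to 117.8 Mb in the other H3K4me1 libraries. The part of depth in these calls was not tested. At Olfm3 H3K4me1 was called in both RXRKO libraries, with folds of 3.58 and 8.23, and in neither WT library. Of the 315 RXRKO-only promoters, 19 (6.03%) had H3K4me1 in RXRKO replicate 2 and in no other library.

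Promoters at which H3K4me3 was called in both genotypes were mostly rich in CpG, and those called in a single genotype, RXRKO or WT, were poorer in it, the 5 genes called in RXRKO only among them. CpG observed over expected, which is 1 where CpG is as frequent as the C and G content allows, was 0.41 at the outermost Elavl2 start, 0.28 at Gabrg1, 0.22 at Spock3, 0.43 at the outermost Dpp6 start and 0.35 at Olfm3. At the second Elavl2 start it was 0.78, at Pcsk2 0.85 and at Marchf4 0.56. Over all promoter sequences the median was 0.26 for 235 sequences called in RXRKO only, 0.32 for 79 called in WT only, 0.75 for 13911 called in both and 0.18 for 6820 called in neither. The 5 RXRKO-only starts lay between 0.22 and 0.43, all under the lower quartile of 0.55 of the sequences called in both. The pattern had exceptions among the starts called in both genotypes: the second Dpp6 start had 0.25 and the outermost Syt1 start 0.33.

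**Figure D2:**
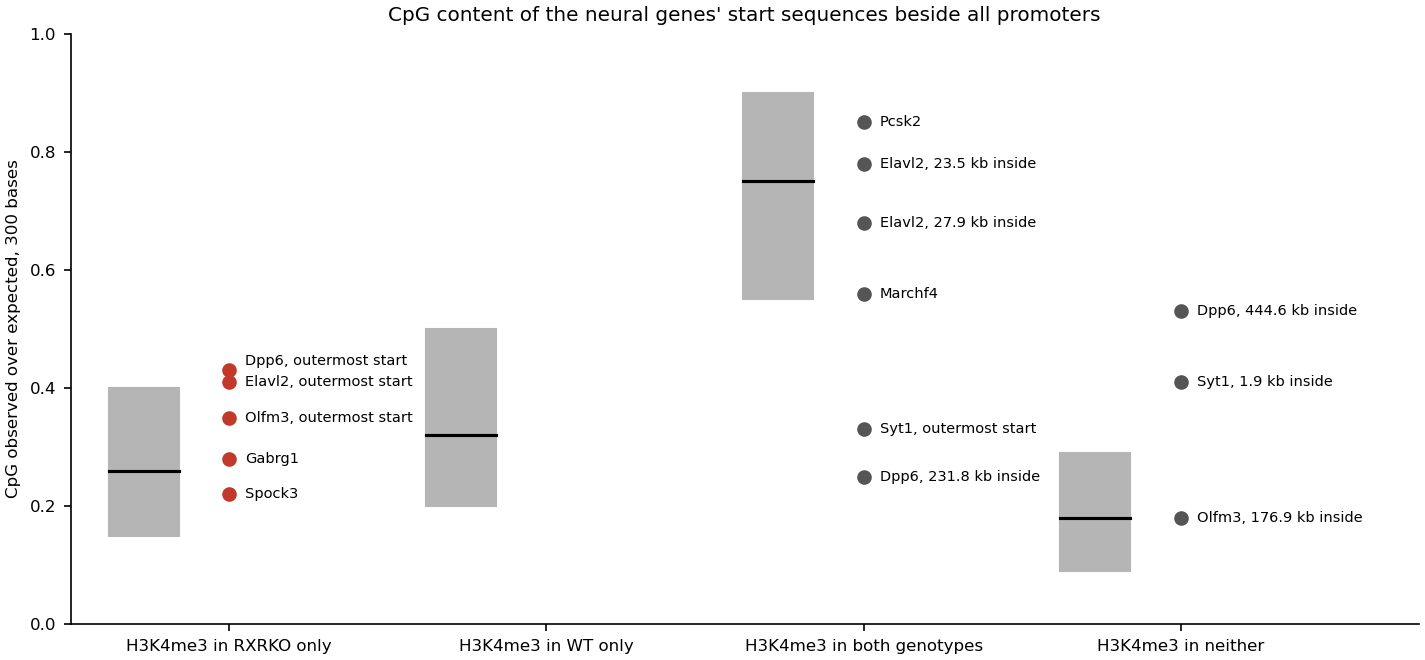
CpG observed over expected in the 300 bases at annotated starts of 8 genes (points), grouped by the libraries that called H3K4me3 within 1 kb; 1 start is drawn where several lie close together. Grey boxes span the quartiles of all promoter sequences of each group and black lines their medians (0.26 for RXRKO only, 0.32 for WT only, 0.75 for both and 0.18 for neither); no start of these genes was called in WT only, and the RXRKO-only starts sit between 0.22 and 0.43.

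Motifs were searched as letters on both strands of the same 300 bases. AGGTCA, the half-site of retinoid X receptors and their partners, was in none of the RXRKO-only starts, but was in the third Dpp6 and the second Syt1 start, and in 14.6% of all promoter sequences. No start of these genes held a direct repeat of AGGTCA spaced by 0 to 5 bases, which 0.0665% of all promoter sequences held, and none held CACGTG, the E-box bound by MYC (7.91%). TCAGCACC and GGACAG, parts of the element bound by the neuronal repressor REST, were found in 1.71% and 22.5% of all promoter sequences. TCAGCACC was at the Marchf4 start alone, and GGACAG at Marchf4, Gabrg1, the outermost Elavl2 and Syt1 starts and the third Dpp6 start. An absent match says only that these letters are not in this window.

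H3K4me1 over the whole gene could be fitted for 8 of the 10 genes. Gabrg1 and Spock3 fell under the minimum of 1000 bp of mean covered length, with 0 and 1648 bp (Gabrg1) and 0 and 1031 bp (Spock3) in RXRKO replicates 1 and 2, against 0 in both WT libraries. In a limma fit over 17760 genes with Benjamini-Hochberg adjustment, 0% of genes were called, and 1051 had an unadjusted p under 0.05. For Elavl2, picked for H3K4me3, H3K4me1 peaks covered 4400 and 14777 bp in RXRKO replicates 1 and 2, against 7294 and 2934 bp in WT. The groups overlapped, and the log2 difference was 0.63 with a standard error (SE) of 0.40 and an adjusted p of 0.94 by limma. For Dpp6 the lengths were 23128 and 34472 bp in RXRKO, against 21171 and 25200 bp in WT, a log2 difference of 0.22 (SE 0.10, limma adjusted p = 0.866). Neither gene differed beyond the spread between libraries. For Elavl2 the replicates of a genotype differed more than the genotypes. Without RXRKO replicate 2 its difference was -0.03, and without WT replicate 1 it was 1.21 with an adjusted p of 0.0384, in a fit that assumes the lone WT library to vary like the RXRKO libraries.

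Gria1 and its partner Shisa9, both parts of AMPA receptors, were the genes with less H3K4me1 in RXRKO. Gria1 peaks covered 3528 and 4942 bp in RXRKO, against 6806 and 7396 bp in WT. Shisa9 peaks covered 15968 and 18711 bp in RXRKO, against 21934 and 24715 bp in WT. In both genes the groups did not overlap, and the log2 differences were -0.70 (SE 0.10) and -0.47 (SE 0.07). Gria1 was the eighth lowest of all fitted genes by this difference. Over all fitted genes both WT libraries lay above both RXRKO libraries in 4.94%, by covered length before each library was centred on its median.

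The 4 genes with more H3K4me1 in RXRKO were the olfactomedin Olfm3, the secretory-pathway genes Pcsk2 and Syt1, and Marchf4. Olfm3 peaks covered 4132 and 7293 bp in RXRKO, against 1843 and 1034 bp in WT, a log2 difference of 1.38 (SE 0.20) and the highest of all 17760 genes. Pcsk2 peaks covered 2412 and 3577 bp in RXRKO, against 1057 and 705 bp in WT (1.02, SE 0.16). Both genes had short lengths in every library, so that a few peaks made up each difference. Marchf4 peaks covered 7348 and 10737 bp in RXRKO, against 4898 and 3786 bp in WT (0.84, SE 0.13). Syt1 peaks covered 5267 and 7733 bp in RXRKO, against 4260 and 3706 bp in WT (0.51, SE 0.12). Both RXRKO libraries lay above both WT libraries in these 4 genes and in 17.1% of all fitted genes, by covered length before centring. After centring, the log2 difference was above 0 in 8563 fitted genes and below 0 in 9197. The H3K4me1 contrast picked the 4 genes. In each of them RXRKO replicate 2, the library with the highest background pileup, was also the longest.

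**Figure D3:**
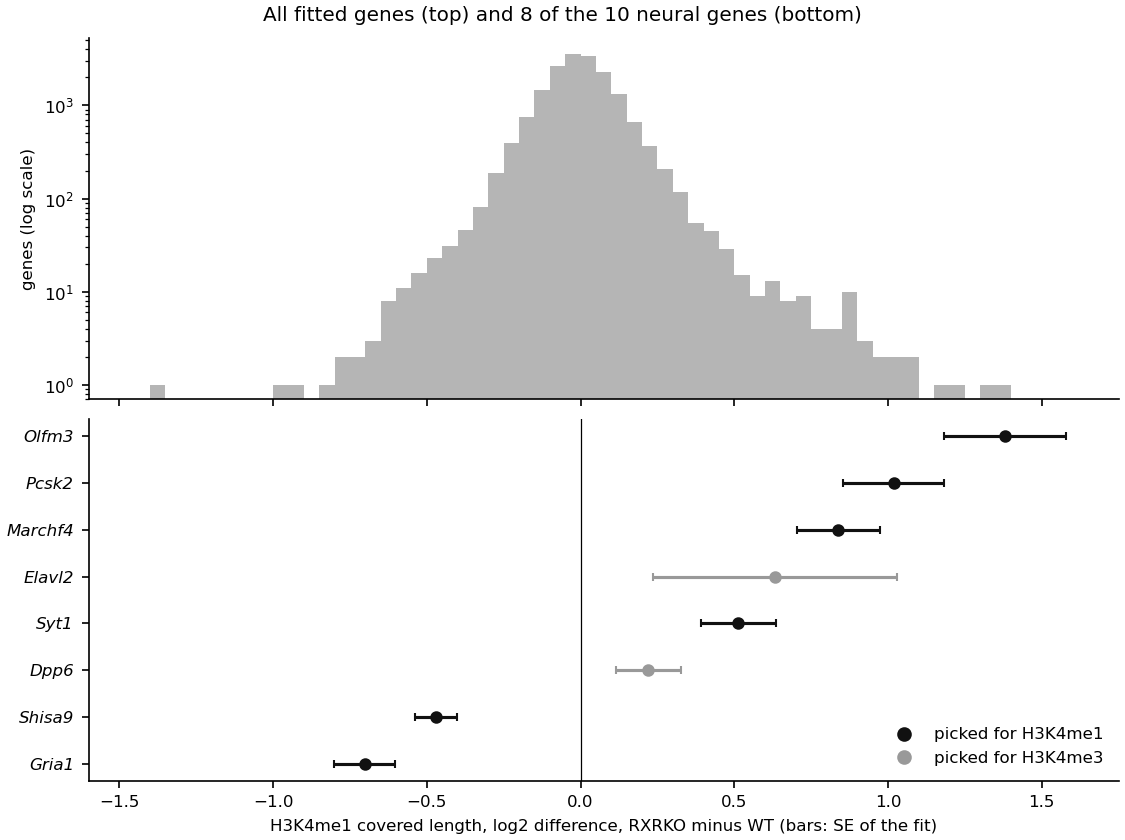
Top, histogram of the log2 difference in H3K4me1 covered length (RXRKO minus WT) over 17760 fitted genes, with a logarithmic count axis. Bottom, the 8 fitted genes on the same axis with the SE of the fit; Olfm3 is highest at 1.38 and Gria1 lowest at -0.70, and these differences picked the genes drawn in black.

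Merging the H3K4me1 peaks of all 4 libraries gave 138 regions in the 10 windows. Of these, 51 (37.0%) were called in all 4 libraries, against 61.8% of 181242 regions genome-wide. A further 10 were called in RXRKO replicates 1 and 2 but not in WT (7.25%, against 2.17% genome-wide), and 9 in WT replicates 1 and 2 but not in RXRKO (6.52%, against 1.94%). RXRKO replicate 2 alone called 34 (24.6%, against 8.86%), among them all 4 regions of Gabrg1, the only region of Spock3 and 9 of the 19 regions of Elavl2. The choice of genes by H3K4me1 or H3K4me3 favours regions that differ between libraries over those that all 4 share. Nothing is therefore read from any of these shares. Without RXRKO replicate 1 the regions called in RXRKO and in no WT library numbered 44, and without WT replicate 1 they numbered 17.

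The 10 RXRKO regions lay in Marchf4 (4), Olfm3 (3) and Pcsk2 (3). At Pcsk2 they lined up at the start, at -640, 617 and 1762 bp from it by their midpoints, with no WT H3K4me1 peak there. The Pcsk2 start has the highest CpG ratio of the sequences matched, and H3K4me3 covered it in both genotypes, as a single RXRKO peak at chr2:143545203-143547135 (fold 6.53) and as 2 short WT peaks with folds up to 4.88. The only other Pcsk2 region was called in all 4 libraries and lies within Bfsp1, the neighbouring gene of a lens filament protein. At Olfm3 the RXRKO regions were the start itself and places 41836 and 163267 bp inside. The Marchf4 regions lay 26062 to 72010 bp inside the gene and in its downstream flank.

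The 9 WT regions lay in Shisa9 (8) and Gria1 (1). The RXRKO regions had a median of 776 bp, against 424 bp for these WT regions. The Gria1 region, at chr11:57121700-57122737, was not called in RXRKO and was covered over 912 and 1036 bp in WT replicates 1 and 2. It lies 110647 bp from the start used. For Gria1 and Shisa9 no strand or start sequence was at hand, so the lower gene end was taken as the start. That end was taken because H3K4me3 was called there in both genotypes. The Shisa9 regions lay from -1007 bp, before the start used, to 212780 bp inside the gene, among 15 Shisa9 regions that all 4 libraries called. The H3K4me3 folds at the ends so chosen were 4.3 in RXRKO and 5.47 in WT at Gria1, and 7.03 in RXRKO and 5.9 in WT at Shisa9. Of the 9 regions, 8 thus lay inside a gene.

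**Figure D4:**
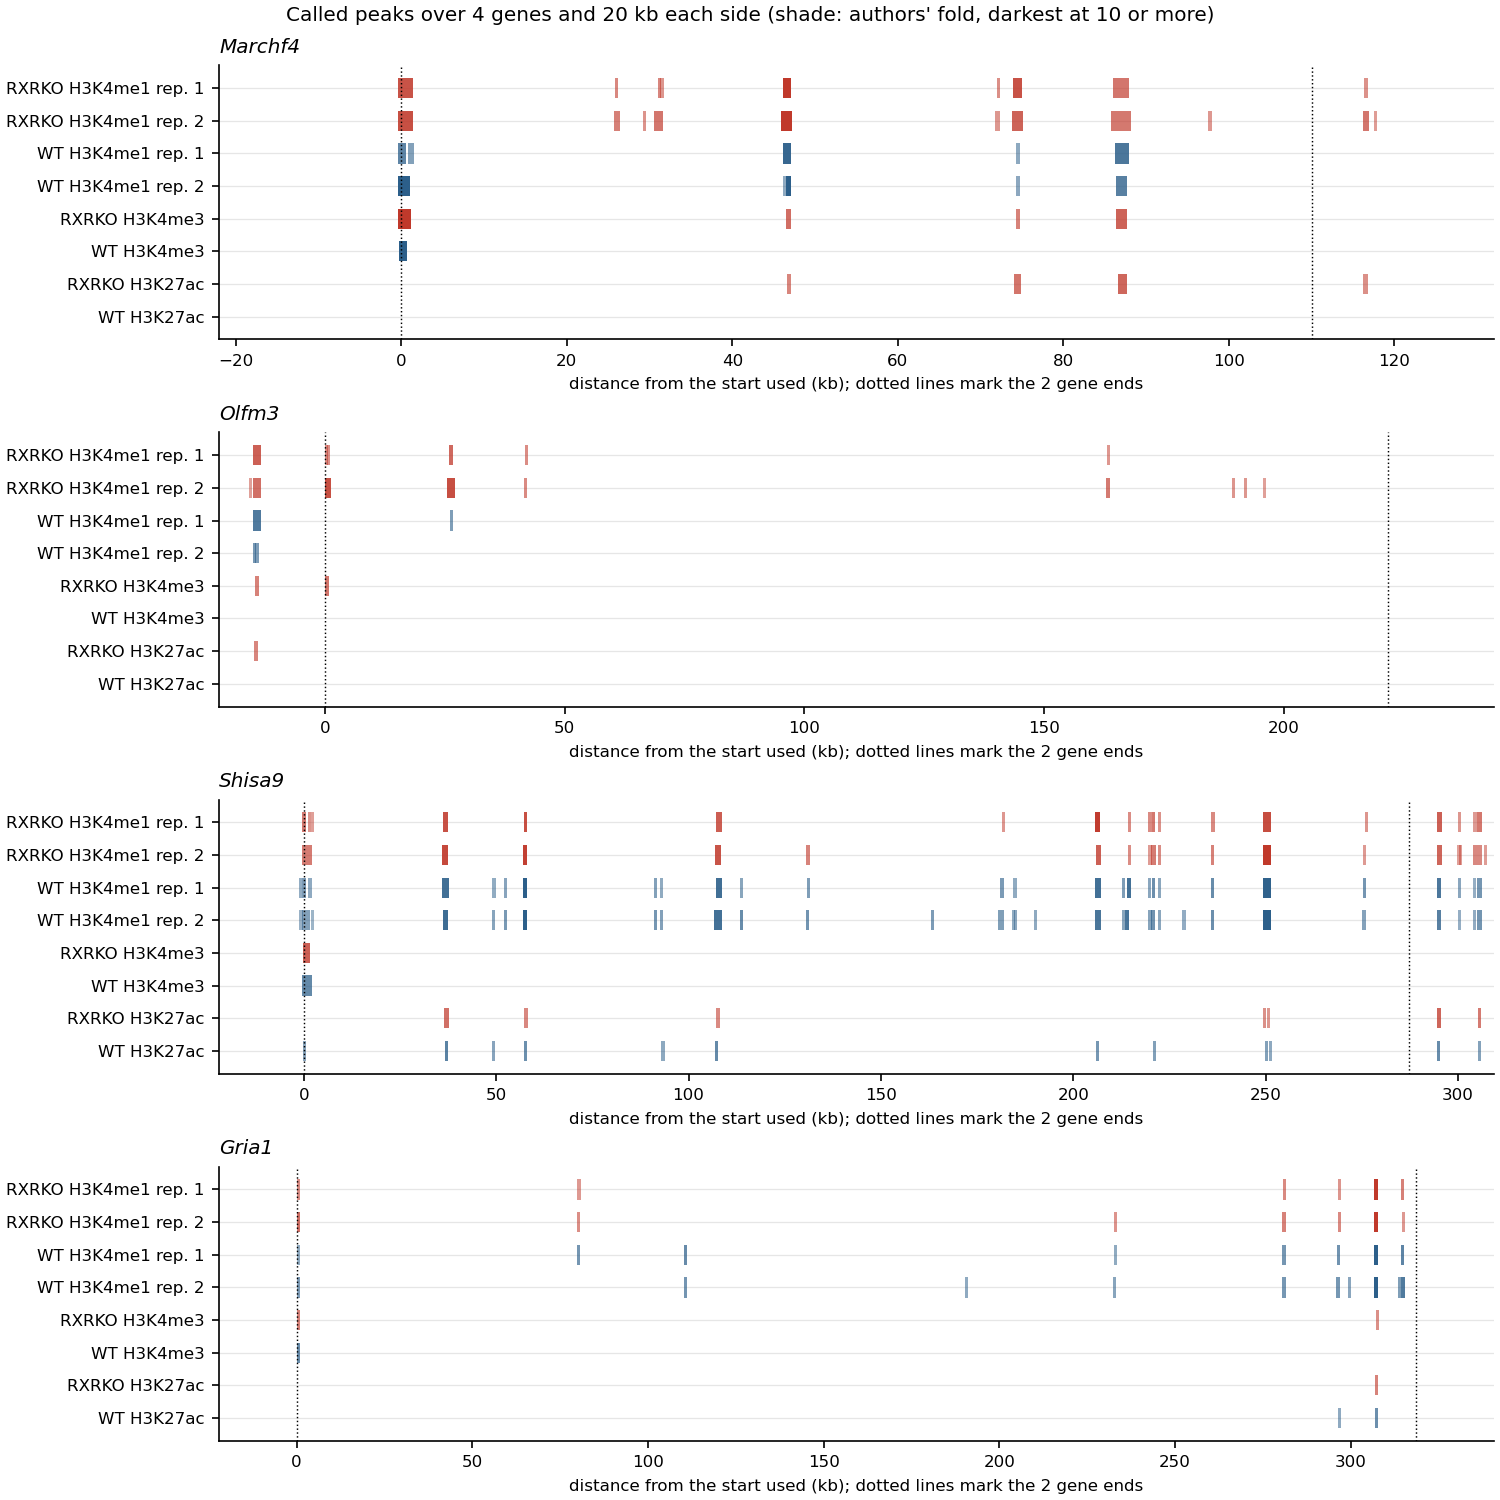
Called peaks over Marchf4, Olfm3, Shisa9 and Gria1 and 20 kb on each side, by distance in kb from the start used, with the gene ends as dotted lines, RXRKO (red) above WT (blue) for each mark, and the shade following the authors' fold; very short peaks are widened to be visible. At Marchf4, H3K4me3 away from the start and all H3K27ac are called in RXRKO only, and Shisa9 and Gria1 hold H3K4me1 peaks in both WT libraries that no RXRKO library called.

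H3K27ac picked none of these genes, and it has 1 library per genotype. At the promoters it was called in both genotypes for Syt1 only, with folds of 4.43 in RXRKO and 3.47 in WT. It was called in WT only for Shisa9, and at none of the other 8 in either genotype. Over all genes 1.32% of promoters had it in RXRKO only and 4.74% in WT only. All 5 promoters with RXRKO-only H3K4me3 thus lacked H3K27ac in both genotypes, as did 43.2% of the 315 such promoters and 9.16% of the 14189 with H3K4me3 in both genotypes.

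Over the windows, H3K27ac length differed in the direction of H3K4me1 in all 6 genes picked for H3K4me1. It covered 809 bp in RXRKO and 0 in WT at Olfm3, 2913 bp in RXRKO and 0 in WT at Marchf4, 476 bp in RXRKO and 237 bp in WT at Pcsk2, and 2539 bp in RXRKO and 1444 bp in WT at Syt1. It covered 762 bp in RXRKO and 973 bp in WT at Gria1, and 4758 bp in RXRKO and 6418 bp in WT at Shisa9. All of the Pcsk2 length lay in the flank beyond the gene, within Bfsp1, and all of the Olfm3 length in the upstream flank. Genome-wide the H3K27ac length was longer in RXRKO in 37% of 17639 genes with the mark. Among 2951 genes with H3K4me1 longer in both RXRKO than in both WT libraries it was longer in RXRKO in 48.8%, and among 841 genes with the opposite pattern it was longer in WT in 72.4%. Elavl2 had 844 bp in RXRKO and 280 bp in WT, Dpp6 5525 bp in RXRKO and 5942 bp in WT, and Gabrg1 and Spock3 none in either. These are single libraries with no test. Gria1 turned to 762 bp in RXRKO and 615 bp in WT with a fold of at least 4, with −log10 q of at least 5 and with the same number of top peaks. With the first 2 of these settings Elavl2 turned to 0 in RXRKO and 280 bp in WT and Pcsk2 had no peak, and with the first Olfm3 had none; with 5 kb of flank neither Olfm3 nor Pcsk2 had a peak.

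Of the 10 genes, Marchf4 had the largest difference in H3K27ac length. Its 3 intragenic regions called for H3K4me1 in all 4 libraries, at chr1:72449043-72451360, chr1:72462061-72463327 and chr1:72489999-72491300, carried H3K4me3 and H3K27ac in RXRKO only. The H3K4me3 folds there were 6.74, 4.3 and 5.86 and the H3K27ac folds 6.42, 5.38 and 4.04 in RXRKO. The upstream Olfm3 region, at chr3:114889051-114890824, had the same pattern, with folds of 4.3 for H3K4me3 and 3.96 for H3K27ac in RXRKO and no such peak in WT. These 4 regions were 7.84% of the 51 regions of the 10 genes shared by all 4 H3K4me1 libraries, against 1.15% of 112074 genome-wide. Differences in H3K4me1 or H3K4me3 picked these genes, and 3 of the 4 regions lie in Marchf4, so nothing is read from this share. Whatever their H3K4me3, 9.8% of the 51 had H3K27ac in RXRKO only and 11.8% in WT only, against 5.96% and 12% genome-wide. The 9.8% include the 4 regions above. The background pileup for H3K27ac was 4.19 in RXRKO and 4.77 in WT. For H3K4me3 it was 6.68 in RXRKO and 4.12 in WT. Its part in these calls was not tested. At its start Marchf4 had H3K4me3 in both genotypes, with folds of 10.3 in RXRKO and 10.4 in WT, and no H3K27ac in either. The H3K4me3 summit pileups there were 128 in RXRKO, or 78.9 scaled to the WT background pileup, and 55 in WT. One end of Smarcal1, a gene of the DNA repair translocase family, lies under the same H3K4me3 peak, so that this peak cannot be assigned to Marchf4 alone.

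H3K4me3 over the windows was longer in RXRKO for 9 of the 10 genes, Shisa9 being the exception with 1945 bp in RXRKO and 2546 bp in WT, and for 78.9% of 17775 genes with the mark. Gabrg1 had 1336 bp, Spock3 1480 bp and Olfm3 1161 bp in RXRKO and 0 in WT. Elavl2 had 4646 bp in RXRKO and 3116 bp in WT, and Dpp6 7184 bp in RXRKO and 4430 bp in WT. Syt1, whose start had a fold of 9.67 in RXRKO and 10.2 in WT, had 2735 bp in RXRKO and 2272 bp in WT. The summit pileups at its start were 408 in RXRKO, or 251.6 scaled to the WT background pileup, and 156 in WT. The RXRKO background for H3K4me3 was 1.621 times that of WT, and its part in these lengths was not tested.

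**Figure D5:**
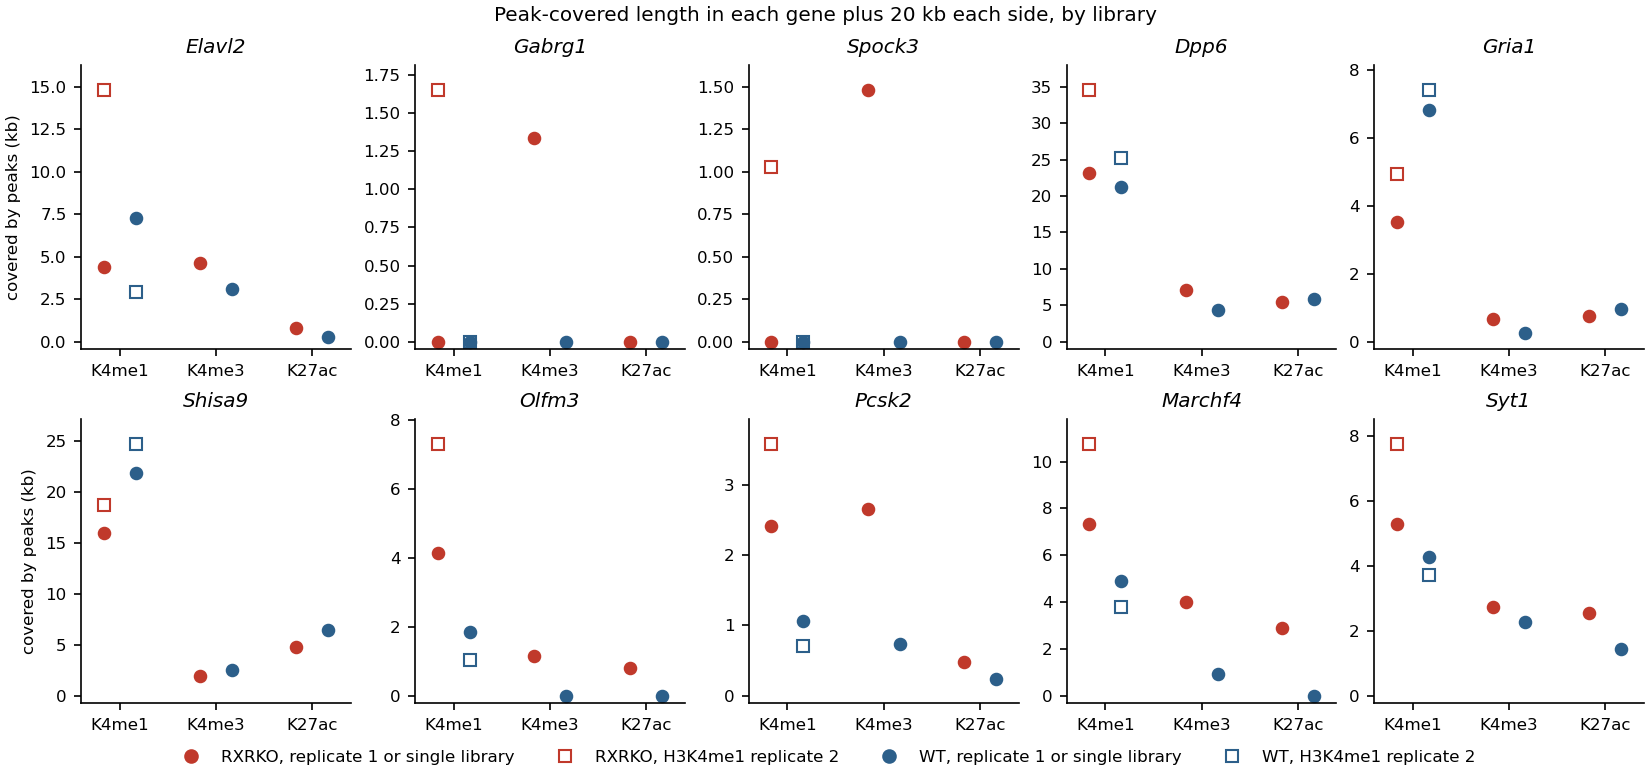
Length in kb covered by called peaks in each of the 10 genes plus 20 kb on each side, for H3K4me1, H3K4me3 and H3K27ac, with RXRKO (red) left of WT (blue); each point is 1 library, and open squares are the second H3K4me1 replicates. The H3K4me1 points of the genotypes do not overlap at Gria1, Shisa9, Olfm3, Pcsk2, Marchf4 and Syt1, and they overlap at the 4 genes picked for H3K4me3.

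Relatives of these genes were counted for H3K4me1 and for promoter calls. The 108 relatives (other ELAV proteins, glutamate and GABA-A receptor subunits, AMPA receptor and Kv4 partners, testicans, olfactomedins, granule proteins, ubiquitin ligases and vesicle release proteins) had a median H3K4me1 log2 difference of 0.013 over the 100 fitted, against -0.004 over all genes, with 54 above and 46 below 0. None passed the adjusted threshold in the limma fit. H3K4me3 was called at 88 of the 108 promoters in both genotypes, at 4 in RXRKO only (Gabrg3, Gabrp, Olfm4 and Syt3), at 2 in WT only (Grik2 and Cacng3) and at 14 in neither. RXRKO-only calls were thus 3.7% of the relatives, against 1.46% of all genes, and WT-only calls 1.85%, against 0.398%. Over its window Syt3 had 4041 bp of H3K4me3 in RXRKO and 3507 bp in WT. Grik2 had 2283 bp in RXRKO and 2291 bp in WT, so the calls for Syt3 and Grik2 concern the gene ends alone. Gabrg3, Gabrp, Olfm4 and Cacng3 had H3K4me3 over the window in the calling genotype alone. By H3K4me1 difference among glutamate receptor subunits, the kainate subunit gene Grik1 was highest (0.92, SE 0.28, adjusted p = 0.597 by limma). The AMPA subunit gene Gria3 was lowest (-0.35, SE 0.08, adjusted p = 0.303 by limma). Cpe, the carboxypeptidase that acts after Pcsk2 in prohormone processing, had 3744 and 6483 bp in RXRKO, against 2470 and 2876 bp in WT (0.64, SE 0.14, adjusted p = 0.311 by limma). The Kv4 partner gene Dpp10, a relative of Dpp6, had a difference of 0.20 (SE 0.14, adjusted p = 0.968 by limma).

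Gabrg1 lies in a cluster of GABA-A receptor genes on chromosome 5 with Gabra2, Gabra4 and Gabrb1. In these relatives H3K4me1 before centring was longer in both RXRKO libraries than in either WT library, as it was in 17.1% of all fitted genes. Gabra4 and Gabrb1 overlap at their ends and share H3K4me1 peaks there, so they are not separate cases. Gabrg1 itself had H3K4me1 in RXRKO replicate 2 alone. Gabra2 had 1977 and 2811 bp in RXRKO, against 1501 and 1600 bp in WT, and Gabra4 had 3372 and 5637 bp in RXRKO, against 2229 and 2025 bp in WT. Gabrb1 had 10895 and 14422 bp in RXRKO, against 8902 and 8736 bp in WT. The log2 differences were 0.34, 0.73 and 0.41, with limma adjusted p values of 0.794, 0.208 and 0.229, so none passed the threshold. The 3 genes had promoter H3K4me3 in both genotypes, unlike Gabrg1, and their promoter H3K27ac was called in RXRKO only. Those H3K27ac peaks were weak, with folds of 2.89 at Gabra2 and 3.24 at a single peak where the ends of Gabra4 and Gabrb1 overlap, and −log10 q values of 2.55 and 3.77.

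Each gene was also set beside the 1 gene whose profile over the 8 libraries was nearest, by Euclidean distance of log2 lengths centred within each mark. The median distance to all genes ran from 0.574 (Dpp6) to 1.966 (Marchf4). A likeness in any mark follows from this choice, so the values below are a description. Gabrg1 and Spock3, with peaks in RXRKO H3K4me3 and RXRKO H3K4me1 replicate 2 alone, were nearest to the protocadherin genes Pcdhb12 (0.222) and Pcdhb11 (0.109). Pcdhb11 had 1215 bp in RXRKO H3K4me1 replicate 2 and 1443 bp in RXRKO H3K4me3, and 0 in the other 6 libraries. Marchf4 was nearest to Kcnb2, a potassium channel gene (0.487), which had 10344 bp of H3K27ac in RXRKO and 1805 bp in WT. Olfm3 was nearest to Rit2 (0.554) and Syt1 to Gria4, another AMPA receptor subunit gene (0.14). The other nearest genes were Klkb1 for Elavl2 (0.625), Oit1 for Dpp6 (0.077), Impg1 for Gria1 (0.23), Rgs22 for Shisa9 (0.14) and Sntg1 for Pcsk2 (0.226). The 10 genes are long, with a median length of 278.8 kb and a range of 91.6 to 910.1 kb, against a median of 17.3 kb over all genes, so their windows take in more sequence than most.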

How the data were processed

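CUT&RUN peak lists of 8 HSC libraries were analysed. The submitters' processing notes name cutadapt 1.7.1, Bowtie2 2.2.5, MACS3 and mm10, and each library has a peak list of its own. Of the MACS3 version, control libraries, duplicate removal and spike-in nothing is stated in the labels. The deposited score is −log10 q times 10, with decimals dropped by the authors. Their fold was read as summit pileup over local background, and the deposited −log10 p and −log10 q are the peak caller's. These values describe peaks within a list. By the run tags in the deposited peak names, both replicate 1 H3K4me1 libraries share one tag and the other 6 libraries another. What kind of run the tags stand for is not given.

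Pileups were recovered from fold and −log10 p. Positions are 1-based. Gene ends came from RefSeq (GRCm38.p6), which gives no exons here. Covered bp in the gene body plus 20 kb were taken as log2(bp + 1000), centred on the library median, and fitted with limma 3.58.1 in R 4.3.3 (lmFit, eBayes with trend) for genes with a mean of at least 1000 bp, called at an adjusted p under 0.05. The fit was tested on simulated data. A peak was assigned by an overlap of at least 1 bp. Other choices of peaks, windows, offset, filter and replicates were tried. H3K4me1 libraries with the same replicate number share a run tag. Over 17760 genes the differences between replicates in RXRKO and in WT correlated with r = 0.212 across genes. A replicate block was therefore also fitted.

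The 10 genes and all gene lists were chosen with earlier results of these data known. Named are the 10 genes, each one's nearest gene, and of each family the genes with the highest and lowest H3K4me1 difference and those with an H3K4me3 or H3K27ac promoter call in 1 genotype; of these, only the ones that bear on the 10 genes are described. One list of marker genes is not reported here.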

Additional observations from a re-analysis of the deposited data

How the results depend on the processing

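For H3K4me1, 0 genes were called by limma. The count was 2 with the replicate block, 2 with −log10 q of at least 5, 204 with no filter on covered length and 65 with no centring, and 0 to 98 without 1 replicate (98 without RXRKO replicate 1, 0 without RXRKO replicate 2, 88 without WT replicate 1 and 13 without WT replicate 2); in the fits with no centring and no filter the estimated prior degrees of freedom were infinite and 62.9, against 8.3. Without 1 replicate Elavl2 ran from -0.03 to 1.3; it was lowest without RXRKO replicate 2, and was called without WT replicate 1 and, at 0.69 (adjusted p = 0.00601), with no centring. The replicate block ended or made no call for Elavl2 or Dpp6 (limma adjusted p = 0.746 and 0.392). The log2 differences of the other 6 fitted genes kept their direction under each alternative run. These differences picked the 6 genes and the runs reuse the same libraries, so nothing is read from the kept direction. Sizes moved: with a fold of at least 4, Shisa9 went from -0.47 to -0.15 and Gria1 from -0.70 to -0.88. A 5 kb window left Pcsk2 under the filter.

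H3K4me3 promoters in RXRKO only numbered 184, against 315, with the same number of top peaks. Those in WT only numbered 86, and 293 with the summit in the promoter, 206 with a fold of at least 4 and 157 with the same number of top peaks. With a fold of at least 4, H3K27ac promoters in RXRKO only numbered 460, against 286, and in WT only 2016, against 1025. Of the 10 genes, H3K27ac was longer in RXRKO in 5, and in 3 with a fold of at least 4 or a 5 kb window. Regions of both RXRKO libraries only numbered 10, 4 with a fold of at least 4, and 10 to 44 without 1 replicate, the highest without RXRKO replicate 1. Regions of both WT libraries only numbered 9, 4 with a fold of at least 4, and 9 to 23 without 1 replicate, the highest without WT replicate 1. The causes were not tested. H3K4me3 and H3K27ac have no replicates, and depth is unknown.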
